A study of Arabidopsis thaliana with 6 samples.

Results

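Introns of nuclear genes with many introns were compared between acinus-2 pnn seedlings, a double mutant with insertions in AtACINUS and AtPININ, and wild-type (WT) seedlings of Arabidopsis thaliana. The members are all introns of nuclear genes with 20 or more introns in the deposited intron tables whose 2 neighbouring exons together held 10 or more reads in each of the 6 libraries. This rule uses exon reads only and kept 10830 of 13152 introns, in 450 of 504 such genes, out of 120998 introns in 33602 genes in the tables. The member genes held between 20 and 78 introns, with a median of 23, and the introns had a median length of 103 bases.

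RNA was extracted from acinus-2 pnn seedlings (replicates 6, 7 and 12) and WT seedlings (replicates 2, 4 and 5), all in the Col-0 background, labelled as 12 days old and grown in continuous light. The methods of the study give an older age than the labels, and the difference could not be settled. Each library was made from whole seedlings, so that a shift in cell types and a shift in RNA per cell cannot be told apart. The labels do not say whether the replicates are separate cultures, and p-values measure the spread between these libraries.

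AtACINUS and AtPININ are plant relatives of animal proteins that sit on spliced RNA beside the exon junction complex and take part in choosing splice sites. A gene with many introns needs as many splicing reactions to give 1 mature RNA, and intron retention means that an intron stays in the RNA after its neighbours have been removed. A retained intron often carries a stop codon in the reading frame, and RNA with an early stop codon can be removed by nonsense-mediated decay. Many of the member genes encode long proteins such as kinases of the DNA damage response, callose synthases, transporters and subunits of RNA polymerases.

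The 6 introns shown first are those that the results turn on: an intron each of KEA1 and MOR1 that rose with a mean of 20 or more reads in acinus-2 pnn, the single falling intron, and 3 introns of the gene with the most rising introns. Each is given 5′ to 3′ on the strand of the gene, from the TAIR10.1 reference of RefSeq, and capitals mark the first stop codon that a ribosome would meet in frame after reading into the intron from the annotated upstream exons. Introns are numbered from the 5′ end of the gene.
KEA1 intron 10, chr1:288177-288400, 224 bases, plus strand: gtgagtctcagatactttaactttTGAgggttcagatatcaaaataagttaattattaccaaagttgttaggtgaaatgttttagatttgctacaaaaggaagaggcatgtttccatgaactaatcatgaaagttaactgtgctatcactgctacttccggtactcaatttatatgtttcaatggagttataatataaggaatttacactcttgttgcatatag
MOR1 intron 47, chr2:14978684-14978835, 152 bases, plus strand: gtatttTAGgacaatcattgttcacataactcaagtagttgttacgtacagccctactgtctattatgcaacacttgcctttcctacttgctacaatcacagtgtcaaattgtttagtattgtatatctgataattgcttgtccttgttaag
INO80 intron 15, chr3:21204626-21204786, 161 bases, plus strand: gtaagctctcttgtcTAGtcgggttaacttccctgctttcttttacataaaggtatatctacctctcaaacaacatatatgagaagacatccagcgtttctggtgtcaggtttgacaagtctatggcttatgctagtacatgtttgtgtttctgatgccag
AT5G13980 intron 10, chr5:4510635-4510709, 75 bases, plus strand: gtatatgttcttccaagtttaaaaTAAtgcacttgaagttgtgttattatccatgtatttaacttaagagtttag
AT5G13980 intron 12, chr5:4511041-4511170, 130 bases, plus strand: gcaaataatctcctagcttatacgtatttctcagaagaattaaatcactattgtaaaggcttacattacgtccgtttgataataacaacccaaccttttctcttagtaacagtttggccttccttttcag
AT5G13980 intron 20, chr5:4512586-4512670, 85 bases, plus strand: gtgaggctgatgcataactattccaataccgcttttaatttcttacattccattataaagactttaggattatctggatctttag
The first 4 introns carry an in-frame stop codon, which in KEA1 comes after 800 codons of an annotated protein of 1193 residues and in MOR1 after 1654 of 1978. Introns 12 and 20 of AT5G13980 carry none in the frame read into them, and intron 12 begins with GC in place of the usual GT.

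Between 20796343 and 25501031 reads in acinus-2 pnn libraries and between 18890178 and 27622690 in WT libraries lay on genes. The member introns took 12684 to 17014 reads in acinus-2 pnn libraries and 8960 to 16157 in WT libraries, and 15.9% of them had no read in any library. AtACINUS exons 4 to 6 held 0, 1 and 1 reads in acinus-2 pnn replicates 6, 7 and 12, and 853, 1300 and 1255 reads in WT replicates 2, 4 and 5. AtPININ exons 1 to 8 held 380, 344 and 435 reads in acinus-2 pnn, against 704, 938 and 964 in WT, while exons 9 to 11 held 1826, 2221 and 2340 reads in acinus-2 pnn and 729, 897 and 905 in WT. The leaf markers RBCS1A, LHCB1.1 and LHCB2.1 were high in every library, but scaled to the gene reads of a library (CPM) all 3 were lower in every acinus-2 pnn library than in any WT library. Summed, they held 7332 to 7626 CPM in acinus-2 pnn and 9176 to 10082 CPM in WT, and LHCB1.1 held 1524 to 1600 CPM in acinus-2 pnn and 2182 to 2792 CPM in WT. The flower markers AG, AP1 and AP3 had at most 3 reads in acinus-2 pnn and 4 in WT. The root markers COBL9, PRP3 and RHD6 summed to 15.3 to 22.7 CPM in acinus-2 pnn and 32.5 to 33.0 CPM in WT, and all 3 were lower without overlap. COBL9 had 59 to 86 reads in acinus-2 pnn and 115 to 190 in WT, and RHD6 had 21 to 25 in acinus-2 pnn and 61 to 81 in WT. The seed storage gene CRA1 had 319 reads in acinus-2 pnn replicate 12, against 2 and 5 in the other acinus-2 pnn libraries and at most 1 in WT. The main counts and ratios are also given without this library, alone or within a range. Shares of the called introns by bin, by number of introns, by sequence and by stop codon are given with it only. The part of these marker differences in the results below was not tested.

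The first question was whether introns of these genes were retained more in the mutant as a whole. For every 100 reads on the neighbouring exons, a read over a junction counted once, the member introns together held 1.14, 1.11 and 1.12 reads in acinus-2 pnn replicates 6, 7 and 12. In WT replicates 2, 4 and 5 they held 0.787, 0.886 and 0.960. The genotypes did not overlap, and the mean of acinus-2 pnn (1.13 ± 0.014) was 1.28 times the mean of WT (0.877 ± 0.087, SD, n = 3 each). The exact two-sided permutation test gave p = 0.10, the smallest value that 3 against 3 libraries allow. WT replicate 2, the shallowest library, had the lowest ratio, and without it the fold was 1.22. Without acinus-2 pnn replicate 12 it was 1.28. The fold was 1.25 over the 389 genes whose RNA level lay within 0.5 log2 of WT, and it was 1.20 without the introns called one by one below.

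The fold was larger where genes held more introns. In the 92 genes with 30 or more introns the ratio was 1.23, 1.19 and 1.19 in acinus-2 pnn and 0.707, 0.806 and 0.871 in WT, a fold of 1.51. In the 358 genes with 20 to 29 introns it was 1.08 to 1.11 in acinus-2 pnn and 0.822, 0.920 and 0.999 in WT, a fold of 1.20. The log2 of the first ratio over the second was 0.14 ± 0.018 in acinus-2 pnn and -0.20 ± 0.014 in WT (SD, n = 3 each), so that the difference was 0.34 on the log2 scale (exact permutation p = 0.10).

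Genes with fewer introns served as the comparison under the same exon minimum. The fold was 1.04 in genes with 2 to 9 introns (45626 introns) and 1.19 in genes with 10 to 19 (32021 introns). The log2 ratio of member introns over introns of genes with 2 to 9 was 0.24 ± 0.017 in acinus-2 pnn and -0.07 ± 0.14 in WT, a difference of 0.31 with no overlap (exact permutation p = 0.10, n = 3 each). Against genes with 10 to 19 introns the difference was 0.12 with overlap between the genotypes (exact permutation p = 0.20), and it was 0.05 without WT replicate 2. Just inside the limit, genes with 20 introns had a ratio of 1.31 to 1.38 in acinus-2 pnn and 1.02 to 1.17 in WT, and genes with 21 introns had 0.936 to 1.04 in acinus-2 pnn and 0.751 to 0.910 in WT. Just outside it, genes with 19 introns had 0.876 to 0.918 in acinus-2 pnn and 0.735 to 0.810 in WT, and genes with 18 introns had 0.767 to 0.789 in acinus-2 pnn and 0.611 to 0.710 in WT. In level, which is not corrected for intron length, genes with 21 introns thus lay closer to those with 19 than those with 20 did.

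**Figure D1:**
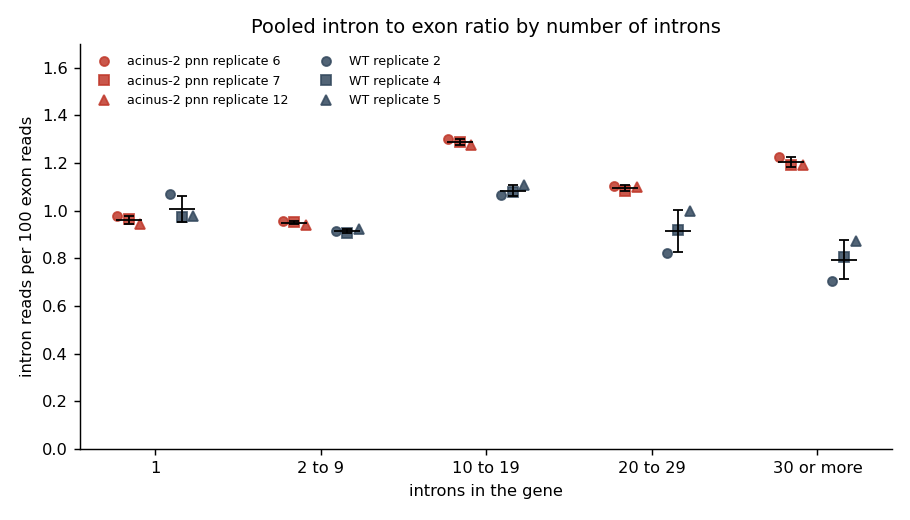
Intron reads per 100 exon reads, summed over all introns with enough exon reads, by the number of introns in the gene (x axis). Each point is a library, with acinus-2 pnn left of WT in each class, and bars are mean and SD (n = 3); the distance between the genotypes is widest at 30 or more introns, where acinus-2 pnn averaged 1.20 and WT 0.795.

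The second question was where along the gene the difference lay. Member introns were put in 5 bins by their number from the 5′ end over the number of introns in the gene. In acinus-2 pnn the ratio averaged 1.24 in the first bin, 1.39 in the second, 1.29 in the third, 1.15 in the fourth and 0.787 in the last. In WT it averaged 0.966, 1.04, 0.909, 0.913 and 0.683 in the same order. The genotypes did not overlap in any bin, and the fold was 1.28, 1.33, 1.42, 1.26 and 1.15 from the first to the last.

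Both genotypes thus had their lowest ratio at the 3′ end, where introns were also shortest (median 95 bases, against 113 in the first bin). The log2 ratio changed by -0.16 ± 0.0040 per bin in acinus-2 pnn and -0.12 ± 0.0085 in WT (SD, n = 3 each). The slopes did not overlap and differed by -0.04 (exact permutation p = 0.10). Read coverage along the gene differed less: exon reads per base in the first bin over those in the last were 0.799 to 0.824 in acinus-2 pnn and 0.820 to 0.834 in WT (exact permutation p = 0.20).

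The ends of the gene were also examined on their own. Over the 412 first introns the ratio was 1.33 ± 0.041 in acinus-2 pnn and 1.12 ± 0.025 in WT (SD, n = 3 each), a fold of 1.18 with no overlap. Over the 436 last introns it was 0.703 to 0.778 in acinus-2 pnn and 0.629 to 0.733 in WT, a fold of 1.08 with overlap (exact permutation p = 0.30). Length did not separate the introns in the same way, since the fold was between 1.26 and 1.33 in introns of up to 80, 81 to 100, 101 to 200 and over 200 bases.

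**Figure D2:**
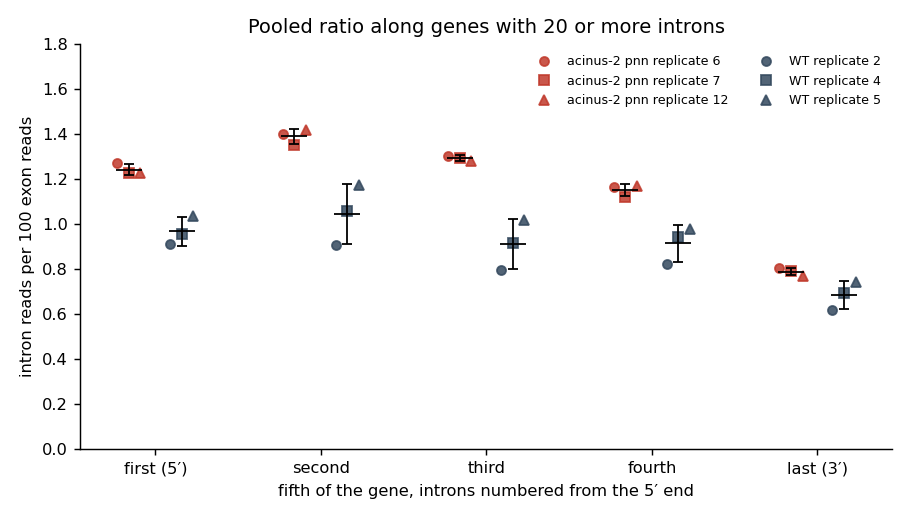
Intron reads per 100 exon reads in the 5 bins along genes with 20 or more introns, from the 5′ end (left) to the 3′ end. Each point is a library, acinus-2 pnn left of WT, with mean and SD (n = 3 each); acinus-2 pnn lies above WT in every bin, and the gap is widest in the third (1.29 against 0.909) and narrowest in the last (0.787 against 0.683).

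Introns were then tested one by one with edgeR's quasi-likelihood test on the intron to exon ratio, with p adjusted by Benjamini-Hochberg over all 25634 introns of the tables with 10 or more reads summed over the 6 libraries. An intron was called rising or falling when the adjusted p was under 0.05, the fold over 2, the intron RPKM over 1 and the intron RPKM over 5% of the gene's in the genotype with more retention. Of 1953 member introns tested, 70 rose, in 52 genes, and 1 fell. Among all introns tested, 0.854% rose and 0.0546% fell. Of tested members, 3.58% rose, with 2.97% in genes with 20 to 29 introns and 5.19% in genes with 30 or more. In genes with 10 to 19 introns this share was 1.41%, and in genes with 2 to 9 introns it was 0.332%. The 10-read minimum sums both genotypes and is passed more easily by an intron that is high in 1 of them, so these shares are descriptions.

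The count of rising introns depended on the libraries and on the tool. It was 44, 39 and 25 without acinus-2 pnn replicate 6, 7 or 12, and 47, 38 and 33 without WT replicate 2, 4 or 5. DESeq2 called 4 rising introns at an adjusted p under 0.05, and 162 rising and 9 falling with an unadjusted p under 0.05. In 68 of the 70 rising introns the ratio did not overlap between genotypes, as was the case in 375 of all 1953 tested members with acinus-2 pnn higher and in 76 with it lower. The share without overlap over the 25634 introns was 16.9% in either direction and 8.94% with acinus-2 pnn higher. In 62 of the rising introns the intron's own reads, scaled to library size, were also above WT in every acinus-2 pnn library. The rising introns had between 10 and 386 reads over the 6 libraries, with a median of 57.

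By position, 9 rising introns lay in the first bin, 13 in the second, 25 in the third, 14 in the fourth and 9 in the last, out of 323, 381, 396, 421 and 432 tested. The share was thus 6.31% in the third bin and 2.08% in the last, and the difference between bins was not tested. The falling intron lay in the fourth.

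**Figure D3:**
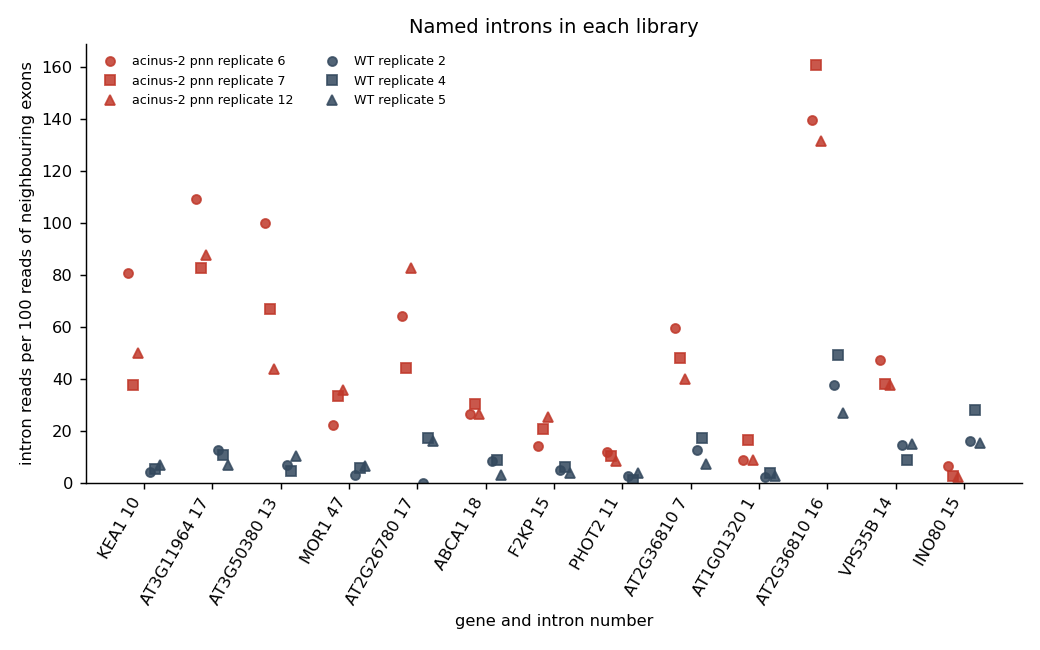
Intron reads per 100 reads of the neighbouring exons in each library (points) for the 12 rising introns with the largest log2 fold change among those with a mean of 20 or more reads in acinus-2 pnn and no overlap between genotypes, and for the falling intron of INO80 at the right. acinus-2 pnn is drawn left of WT for each intron; AT2G36810 intron 16 stands highest in both, at 131 to 161 in acinus-2 pnn and 26.6 to 49.2 in WT.

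KEA1 (AT1G01790), a potassium antiporter of the chloroplast envelope, had the largest rise among introns with a mean of 20 or more reads in acinus-2 pnn. Its intron 10, printed above, held 42, 24 and 50 reads in acinus-2 pnn and 8, 15 and 21 in WT. Per 100 exon reads this was 80.8, 37.5 and 50 in acinus-2 pnn and 3.92, 5.26 and 6.71 in WT, with a wide gap between the genotypes. The log2 fold change was 3.30 ± 0.34 (SE, edgeR adjusted p = 3.96e-09). Spliced reads over this intron numbered 6, 15 and 13 in acinus-2 pnn and 66, 103 and 118 in WT. The exon reads beside it were also lower, 52, 64 and 100 in acinus-2 pnn and 204, 285 and 313 in WT. The RNA level of the gene had a log2 fold change of -1.89. A lower RNA level raises the ratio where intron reads stay the same and lowers spliced reads, and the part of this was not tested.

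AT3G11964, annotated as RIBOSOMAL RNA PROCESSING 5, came next. Its intron 17 of 39 held 109, 82.5 and 87.7 reads per 100 exon reads in acinus-2 pnn, against 12.5, 10.5 and 6.67 in WT. The log2 fold change was 3.21 ± 0.41 (SE, edgeR adjusted p = 6.92e-07). In AT3G50380, annotated as a vacuolar protein sorting-associated protein, intron 13 of 37 held 100, 66.7 and 43.6 reads per 100 in acinus-2 pnn and 6.90, 4.44 and 10.3 in WT. This was a log2 fold change of 3.19 ± 0.51. DESeq2 kept the call of AT3G11964 intron 17 (adjusted p = 0.011) and did not call AT3G50380 intron 13 (adjusted p = 0.12).

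MOR1 (AT2G35630) encodes a microtubule-associated protein needed for the order of cortical microtubules. Its intron 47 of 52 held 27, 36 and 38 reads in acinus-2 pnn and 4, 10 and 10 in WT, or 22.3, 33.3 and 35.5 per 100 exon reads in acinus-2 pnn and 3.05, 5.75 and 6.37 in WT. The log2 fold change was 2.52 ± 0.38 (SE, edgeR adjusted p = 3.56e-05), and DESeq2 did not call it (adjusted p = 0.12). The stop codon shown in capitals lies at the start of the intron.

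Rises near 2 on the log2 scale were found in genes of several kinds. In F2KP (AT1G07110), which makes and breaks a sugar phosphate that regulates sucrose synthesis, intron 15 held 14.2, 20.6 and 25.3 reads per 100 in acinus-2 pnn and 5, 5.79 and 3.85 in WT (log2 fold change 2.05 ± 0.34). In the blue light receptor PHOT2 (AT5G58140) intron 11, of 75 bases, held 11.9, 10.1 and 8.30 in acinus-2 pnn and 2.58, 1.02 and 3.52 in WT (2.04 ± 0.40). The first intron of AT1G01320, a tetratricopeptide repeat protein, held 31, 56 and 41 reads in acinus-2 pnn and 6, 13 and 10 in WT (1.96 ± 0.36). The 2 genotypes were apart in each of these introns, as the choice of the introns required, and each edgeR call held without any 1 library. DESeq2 called none of them (adjusted p = 0.49 for F2KP, 0.54 for PHOT2 and 0.54 for AT1G01320).

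AT2G36810, an ARM repeat protein with 50 introns, had 2 introns in this group. Intron 16, of 506 bases, held 99, 98 and 130 reads in acinus-2 pnn and 12, 30 and 17 in WT, with a log2 fold change of 1.92 ± 0.32 (SE, edgeR adjusted p = 0.000164). It was spliced in few reads of the mutant: 4, 3 and 4 spliced reads in acinus-2 pnn, against 12, 17 and 18 in WT. Intron 7 held 59.3, 48.1 and 40 reads per 100 in acinus-2 pnn and 12.5, 17.3 and 7.27 in WT (log2 fold change 1.96 ± 0.43). DESeq2 called neither (adjusted p = 0.49 for intron 16 and 0.71 for intron 7).

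The other introns of this group were less stable between libraries. Intron 18 of the ABC transporter ABCA1 (AT2G41700) rose by 2.09 ± 0.44 on the log2 scale, intron 17 of AT2G26780 by 2.29 ± 0.45, and intron 14 of VPS35B (AT1G75850), a retromer subunit, by 1.69 ± 0.37. The calls of ABCA1 intron 18 and AT2G36810 intron 7 were lost without WT replicate 5 (edgeR adjusted p = 0.078 and 0.11), that of AT2G26780 without acinus-2 pnn replicate 12 (0.066) and that of VPS35B without WT replicate 4 (0.071). All kept their direction in these fits. DESeq2 did not call ABCA1 intron 18 (adjusted p = 0.59), AT2G26780 intron 17 (0.49) or VPS35B intron 14 (0.78).

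The falling intron lay in INO80 (AT3G57300), an ATPase that remodels chromatin. Its intron 15 of 23, printed above, held 5, 2 and 2 reads in acinus-2 pnn, against 18, 35 and 20 in WT. Per 100 exon reads this was 6.33, 2.56 and 2.04 in acinus-2 pnn and 15.8, 27.8 and 15.3 in WT, without the overlap that would have kept it from being named. The log2 fold change was -2.42 ± 0.51 (SE, edgeR adjusted p = 0.00538). The edgeR adjusted p was 0.075 without acinus-2 pnn replicate 7, 0.12 without replicate 12 and 0.051 without WT replicate 4, and the fold kept its direction. DESeq2 did not call this intron (adjusted p = 0.54).

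The third question was how many introns rose in each gene. Of the 52 genes with a rising intron, 42 had 1, 7 had 2, and AT1G15290, KEA1 and AT5G13980 had 3, 4 and 7. Genes with a single rising intron thus made up 80.8% (95% exact binomial interval 67.5% to 90.4%, for counting error only). Over all genes of the tables with a tested intron, 1.57% had a rising intron, and among the 380 member genes with one 13.7% did. Among genes with 10 to 19 introns this share was 3.69%. Genes with a rising intron had a median of 9 tested introns, against 4 over all member genes, so that they also had more chances of a call. In genes with 10 to 19 introns 66 of 77 had a single rising intron, and in genes with 2 to 9, 43 of 47.

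The other tested introns of genes with a rising intron, at any distance from it, also leaned upward without a call. In the genes with a rising intron, 287 of 404 other tested introns (71.0%) had a log2 fold change above 0, with a median of 0.52. In the other member genes this was 912 of 1479 (61.7%), with a median of 0.24. Over all tested introns of the tables it was 48.2%, with a median of -0.03. The RNA level was also lower in genes with a rising intron (median log2 fold change -0.34, against -0.08 in the other member genes). Fewer exon reads raise the ratio where intron reads stay the same, and the part of this was not tested.

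AT5G13980, a glycosyl hydrolase of family 38, the family of alpha-mannosidases that trim sugar chains of proteins, had the most rising introns. Introns 3, 6, 10, 12, 17, 20 and 25 of its 29 rose, and all 18 tested introns had a log2 fold change above 0. Its RNA level was lower in acinus-2 pnn (log2 fold change -1.61), and fewer exon reads raise the ratio where intron reads stay the same. Intron 20, printed above, held 20, 11 and 18 reads in acinus-2 pnn and 2, 9 and 8 in WT, or 27.8, 25 and 24.3 per 100 exon reads in acinus-2 pnn and 1.23, 3.37 and 3.29 in WT. This was a log2 fold change of 3.18 ± 0.45 (SE, edgeR adjusted p = 6.92e-06). Intron 12, with the GC donor, held 19.5, 35.9 and 29.8 per 100 in acinus-2 pnn and 2.22, 4.67 and 1.38 in WT (3.38 ± 0.55). Intron 10 held 13.8, 5.88 and 14.4 in acinus-2 pnn and 0.606, 1.86 and 1.56 in WT (3.05 ± 0.60). Its own reads were 9, 3 and 13 in acinus-2 pnn and 1, 4 and 4 in WT, and they overlapped between genotypes also when scaled to library size. The other 4 rising introns had at most 10 reads in any library, and intron 17 overlapped between genotypes, with 3, 0 and 7 reads in acinus-2 pnn and 1, 0 and 0 in WT.

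In KEA1 6 introns were tested. Besides intron 10, its introns 4, 13 and 17 rose, by 1.87 ± 0.42, 3.02 ± 0.55 and 2.78 ± 0.71 on the log2 scale. Intron 4 held 12, 9 and 21 reads in acinus-2 pnn and 10, 13 and 18 in WT, and intron 13 held 18, 8 and 4 in acinus-2 pnn and 2, 6 and 6 in WT. Intron 17 held 10, 0 and 6 reads in acinus-2 pnn and 3, 3 and 2 in WT, and its ratio overlapped between genotypes. In all 3, the intron's own reads overlapped between genotypes also when scaled to library size, while the exon reads of KEA1 were lower in acinus-2 pnn. Summed over the gene, intron reads per 100 gene reads were 10.6, 6.07 and 8.70 in acinus-2 pnn and 1.44, 1.77 and 1.83 in WT.

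In AT1G15290, a tetratricopeptide repeat protein, introns 7, 11 and 19 of 20 rose by 2.02 ± 0.46, 1.32 ± 0.36 and 1.28 ± 0.33 on the log2 scale. Its last rising intron held 29, 39 and 40 reads in acinus-2 pnn and 9, 15 and 24 in WT. The log2 fold change was above 0 in 11 of the 16 tested introns of this gene.

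ATM (AT3G48190), the kinase that signals breaks in DNA, had the most introns of all member genes, 78. Its intron 42, of 497 bases, held 14, 10 and 23 reads in acinus-2 pnn and 0, 2 and 4 in WT (log2 fold change 3.84 ± 0.57, edgeR adjusted p = 1.94e-05), and spliced reads over it numbered 1, 2 and 4 in acinus-2 pnn and 14, 10 and 9 in WT. Its intron 23 held 6, 7 and 13 reads in acinus-2 pnn, against 2, 1 and 1 in WT (2.97 ± 0.67). In MOR1 intron 29 rose beside intron 47, with 3, 9 and 9 reads in acinus-2 pnn and 0, 1 and 2 in WT.

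The other genes with 2 rising introns were TAF2 (introns 5 and 14), a subunit of the general transcription factor TFIID, VPS35B (8 and 14), AT4G38350 (20 and 29), of the Patched family, AT5G11700 (1 and 16) and AT2G36810. All 10 tested introns of TAF2 and all 13 of AT4G38350 had a log2 fold change above 0. In AT2G36810 and MOR1, by contrast, 5 of 9 and 10 of 17 did. The RNA level was lower in AT4G38350 (log2 fold change -1.31), by less in TAF2 (-0.44) and MOR1 (-0.39), and higher in AT2G36810 (0.23). Fewer exon reads raise the ratio where intron reads stay the same, and the part of this in the contrast was not tested. Over these genes the 2 rising introns were never neighbours in the gene.

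**Figure D4:**
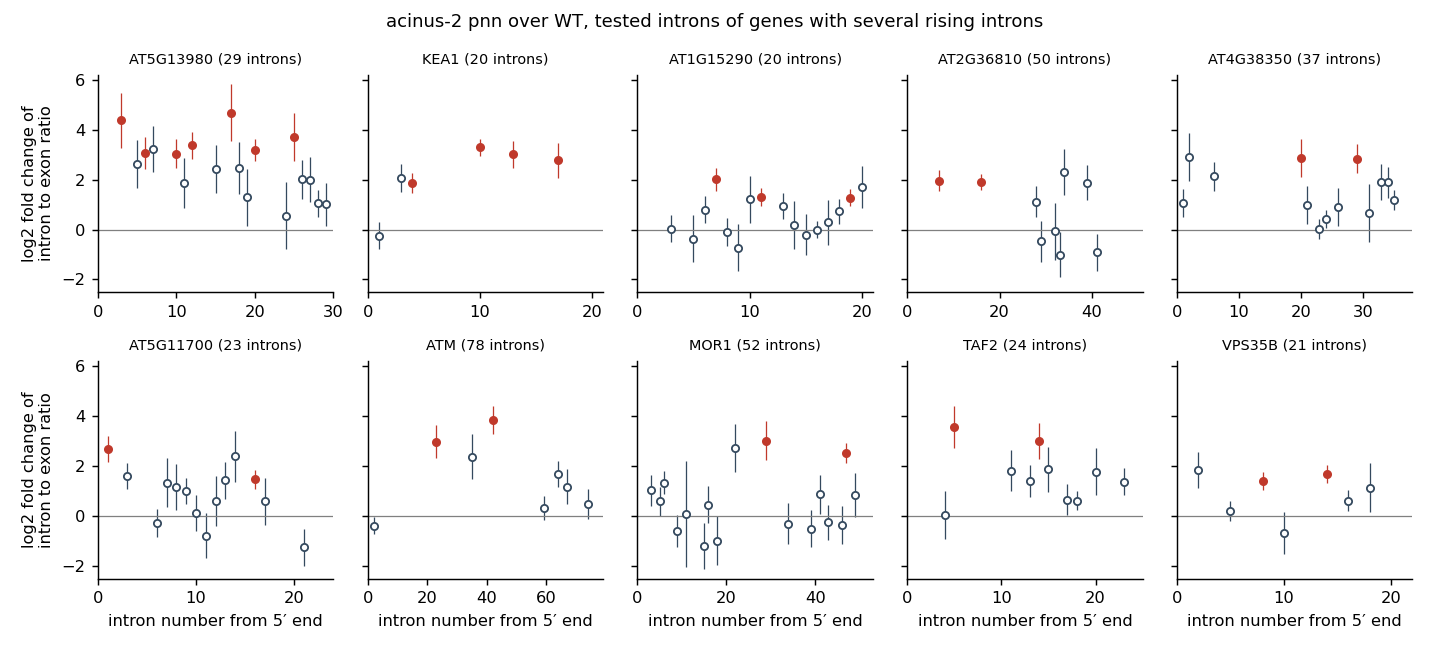
log2 fold change of the intron to exon ratio, acinus-2 pnn over WT, with its SE, against the intron number from the 5′ end, for the tested introns of the 10 genes with 2 or more rising introns. The SE is derived from the F value of the test and is unstable near 0. Filled red points are rising introns and open points passed no call; in AT5G13980, TAF2 and AT4G38350 all points lie above 0, while in MOR1 and AT2G36810 the open points lie on both sides. The RNA level was lower in AT5G13980 (log2 fold change -1.61), AT4G38350 (-1.31), TAF2 (-0.44) and MOR1 (-0.39), and higher in AT2G36810 (0.23). A lower RNA level raises the ratio where intron reads stay the same.

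The sequences of the rising introns were compared with those of other member introns, as a description. The 70 rising introns had a median length of 148.5 bases and a median GC content of 34.7%. The 1883 tested members that did not rise had 153 bases and 33.9%, and the 8877 with too few reads 99 bases and 33.3%. The base before the final AG was C in 55.7% of rising introns, 66.0% of tested ones and 68.9% of those with too few reads. The last base of the upstream exon was G in 74.3%, 76.1% and 79.3%. AT5G13980 alone held 7 of the rising introns, with C before the final AG in 42.9% and G at the exon end in 42.9%. In the 63 rising introns outside it these shares were 57.1% and 77.8%.

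Most of the rising introns within coding sequence would bring a stop codon of their own. Of 66 rising introns within the annotated coding sequence, 59 (89.4%) held a stop codon in the frame read into them, and in 7 the first stop lay after the intron. In tested introns that did not rise the share was 93.0% of 1739. The exceptions were gathered in 1 gene: 6 of the 7 rising introns of AT5G13980, with intron 10 alone holding a stop, and PHYLLO intron 17. In these exceptions the first stop still came before the annotated end of the protein. It came after 159 to 907 codons in AT5G13980 (1024 residues) and after 1035 in PHYLLO (1715 residues). In the coding sequence of AT5G13980 all 9 tested introns that did not rise and all 11 with too few reads held a stop within the intron. Outside AT5G13980, 58 of 59 rising introns did. This pattern was noticed after the values were seen and was not tested.

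Retention was then summed over the introns of each gene and set against the reads of the gene, in the same edgeR test. Over all 13169 genes tested, 1.75% had more retention in acinus-2 pnn and 0.843% less, at an adjusted p under 0.05. Of 432 member genes tested, 49 (11.3%) had more and 3 less, with a median log2 fold change of 0.29, against -0.08 over all genes. In genes with 10 to 19 introns 99 of 2516 (3.93%) had more and 9 less, with a median of 0.05. Of the 49 genes, 34 held a rising intron and 15 did not. With all called introns left out of the sums, 19 member genes had more, against 0.881% of all genes. The 49 became 31 without acinus-2 pnn replicate 12, 31 without WT replicate 2 and 29 without WT replicate 4, and the 3 became 1 without WT replicate 4. DESeq2 called 5, and 58 at an unadjusted p under 0.05, against 114 by edgeR at an unadjusted p under 0.05.

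The largest sums were in AT5G13980 and KEA1, with log2 fold changes of 2.50 ± 0.20 and 2.32 ± 0.20 (SE). NRPC2, the second largest subunit of RNA polymerase III, which makes transfer RNA, followed. Its intron reads per 100 gene reads were 12.0, 14.4 and 11.1 in acinus-2 pnn, against 1.05, 3.13 and 3.49 in WT, and the log2 fold change was 2.20 ± 0.31 (edgeR adjusted p = 2.02e-06). Its rising intron 17 held 16, 19 and 13 reads in acinus-2 pnn and 0, 0 and 5 in WT, and without it the log2 fold change of the sum was 1.69 (edgeR adjusted p = 0.0040). ABCC13, an ABC transporter, followed with 1.67 ± 0.27, with 11.8, 15.2 and 11.3 intron reads per 100 gene reads in acinus-2 pnn and 3.17, 4.02 and 4.46 in WT. In AT2G36810 the sum was 14.7, 13.2 and 13.1 in acinus-2 pnn and 4.37, 5.79 and 5.18 in WT (edgeR adjusted p = 3.27e-07), and it rested on the 2 called introns, since the log2 fold change was 0.14 without them (edgeR adjusted p = 0.86).

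Less retention was found in GMI1, a gene induced by radiation damage, in ABCG40, a transporter of the ABC family, and in INO80. ABCG40 had 5.29, 3.57 and 5.50 intron reads per 100 gene reads in acinus-2 pnn and 21.1, 10.1 and 11 in WT (log2 fold change -1.44 ± 0.31, edgeR adjusted p = 0.00257). Its intron reads were 20, 19 and 26 in acinus-2 pnn and 26, 26 and 31 in WT, while its gene reads were 378, 532 and 473 in acinus-2 pnn and 123, 258 and 281 in WT. GMI1 had only 2, 0 and 3 intron reads in acinus-2 pnn and 5, 3 and 1 in WT, and its call was lost without WT replicate 4 (adjusted p = 0.051). The sum in INO80 was -1.02 ± 0.27, and it was -0.21 without the called intron (edgeR adjusted p = 0.86). Its adjusted p was between 0.067 and 0.12 without acinus-2 pnn replicate 7 or 12 or without WT replicate 4 or 5.

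Gene families were described from lists set by function. Of 8 callose synthases among the members, enzymes that make the callose of cell plates and plasmodesmata, 3 had more summed retention: GSL10 (log2 fold change 0.96), CALS1 (0.81) and GSL12 (0.89). The median of the 8 was 0.55, with a range of 0.09 to 0.96. Over all 432 member genes tested the median was 0.29 and 11.3% had more, against 1.75% of all genes tested. DESeq2 called 0 of the 8 at an adjusted p under 0.05 (3 by edgeR at an unadjusted p under 0.05). GSL10 intron 20 held 19, 14 and 16 reads in acinus-2 pnn and 5, 3 and 2 in WT, and CALS1 intron 6 held 12, 10 and 13 in acinus-2 pnn and 0, 2 and 4 in WT.

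The next lists are short, and a single call in them is to be read beside the 49 of 432 member genes tested that had more and the 3 that had less. Of 5 RNA polymerase large subunits NRPC2 alone passed the test, and NRPA1 had the lowest value, -0.90. Among 4 kinases related to phosphatidylinositol kinases, ATM had more (0.73) and TOR, the growth regulator, had 0.34 with an adjusted p of 0.54 by edgeR. Of 3 ion pumps the calcium pump ACA10 had more (1.05), with 11 of 11 tested introns above 0, and its intron 18 held 10, 18 and 29 reads in acinus-2 pnn and 2, 2 and 4 in WT. Of 3 DNA repair genes tested RAD50 had more (0.94, edgeR adjusted p = 0.049). INO80 was the 1 of 6 chromatin remodelling ATPases with a call. Of these lists, DESeq2 kept a call in the RNA polymerases (1 gene) and in none of the kinases, ion pumps, DNA repair genes and chromatin remodelling ATPases, where edgeR at an unadjusted p under 0.05 had 1, 1, 1 and 2 genes.

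In the other 6 lists with members no gene passed the test in edgeR or DESeq2. By edgeR at an unadjusted p under 0.05, 4 of 11 myosins tested, 2 of 6 nuclear transport receptors, 1 of 6 Argonaute and Dicer proteins, 1 of 3 spliceosome and exon junction proteins, 0 of 5 replication proteins and 0 of 3 SMC proteins did. The medians were 0.30 for myosins, 0.20 for transport receptors, 0.28 for Argonaute and Dicer proteins and -0.09 for spliceosome proteins. The medians were -0.33 for replication proteins and -0.26 for SMC proteins, which hold chromosomes together. No cellulose synthase has 20 introns in the tables.

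The study names EMB2247, SEC, PRP8 and ELF8 among the member genes. EMB2247 (AT5G16715), needed for embryo development, had a rising intron: intron 14 of 26 held 36, 36 and 41 reads in acinus-2 pnn and 15, 28 and 28 in WT, or 16.2, 17.7 and 16 per 100 exon reads in acinus-2 pnn and 5.66, 8.31 and 8 in WT. The log2 fold change was 1.16 ± 0.29 (SE, edgeR adjusted p = 0.030). For the same intron the study reported reduced splicing in the double mutant, by RT-PCR in younger seedlings. SEC, an enzyme that puts sugar on proteins, had 4.68, 4.34 and 5.15 intron reads per 100 gene reads in acinus-2 pnn and 2.92, 3.33 and 3.76 in WT. These did not overlap, but the log2 fold change of 0.49 ± 0.20 did not pass the test (edgeR adjusted p = 0.23). For PRP8 (AT1G80070), the core of the U5 particle of the spliceosome, the value was -0.52 ± 0.32, and for ELF8, of the PAF1 complex, -0.89 ± 0.38, with adjusted p of 0.50 and 0.25 by edgeR.

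The RNA level of the member genes was compared last, by edgeR on gene reads, where a call needed an adjusted p under 0.02 and a fold over 2. Over all 20962 genes tested 4.29% were higher and 4.88% lower in acinus-2 pnn. Of 450 member genes 6 (1.33%) were higher and 14 (3.11%) lower, with a median log2 fold change of -0.10, against 0.00 over all genes. Of the 52 genes with a rising intron, 7 were lower and 0 higher, also by DESeq2 and at an unadjusted p under 0.05. Their median was -0.34, and 43 of 52 lay below 0. Of the 398 without a rising intron 256 lay below 0, with a median of -0.08. RNA level and retention share the gene's reads, so that a fall in the first can raise the second where intron reads stay the same.

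The 7 genes with both were KEA1, AT5G13980, LDA, AT4G38350, AT1G56500, TPP2 and ABCC13. KEA1 had 935, 922 and 1126 gene reads in acinus-2 pnn and 3196, 4016 and 4211 in WT, a log2 fold change of -1.89 ± 0.05 (SE), and AT5G13980 had 691, 574 and 915 in acinus-2 pnn and 1760, 2462 and 2678 in WT (-1.61 ± 0.07). LDA, a limit dextrinase of starch breakdown, had 241, 293 and 289 in acinus-2 pnn and 658, 725 and 860 in WT (-1.39 ± 0.11). TPP2, a large peptidase, had 2012, 1988 and 2574 in acinus-2 pnn and 4127, 5702 and 5826 in WT (-1.20 ± 0.05). In these 4 genes every acinus-2 pnn library was below every WT library.

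The 6 higher genes held no rising intron. GMI1 had 773, 739 and 1087 gene reads in acinus-2 pnn and 86, 130 and 144 in WT (log2 fold change 2.90 ± 0.09). ACC2, an acetyl-CoA carboxylase of fatty acid synthesis, had 1946, 1509 and 2282 in acinus-2 pnn and 235, 276 and 355 in WT (2.78 ± 0.10). NRPC1, the largest subunit of RNA polymerase III and the partner of NRPC2, had 1417, 1334 and 1721 in acinus-2 pnn and 273, 397 and 399 in WT (2.12 ± 0.06). NRPC2 itself had 341, 277 and 387 in acinus-2 pnn and 381, 479 and 545 in WT (-0.43 ± 0.08), under the fold of a call.

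**Figure D5:**
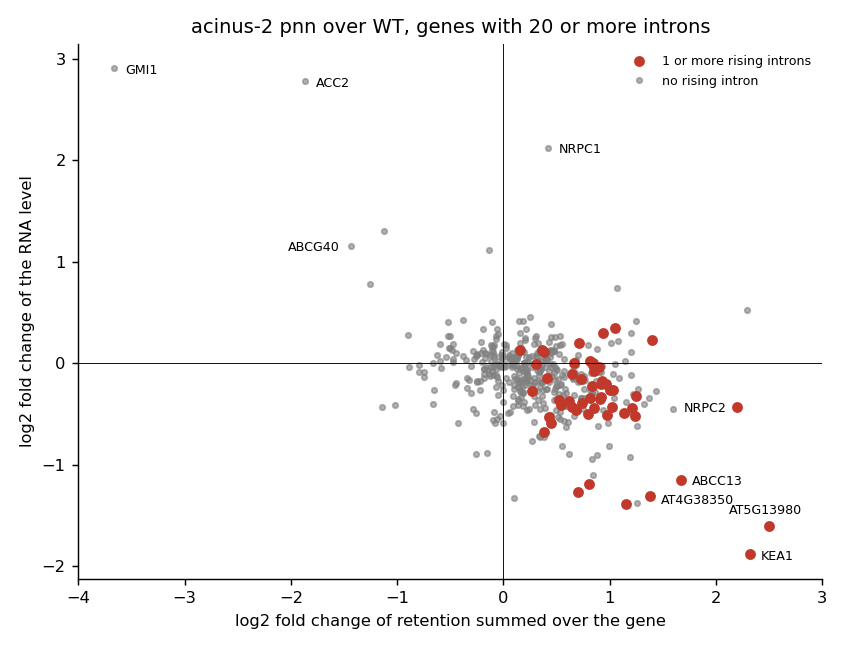
log2 fold change of the RNA level (y axis) against that of the retention summed over the gene (x axis), acinus-2 pnn over WT, for the 432 tested genes with 20 or more introns. Red points hold a rising intron; AT5G13980 (2.50, -1.61) and KEA1 (2.32, -1.89) lie at the lower right and GMI1 (-3.67, 2.90) at the upper left, and both axes share the gene's reads.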

How the data were processed

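The authors mapped reads to TAIR10 with STAR, and RACKJ at its default settings gave the deposited tables. Which mapping fed RACKJ, and whether counting used strand, is not given in the sources used here. The deposited gene, exon and intron tables hold expected counts, in which a read shared by several genes is split. The deposited junction tables hold the count of spliced reads. A deposited fraction gives the share of reads that count for several genes. The RPKM the authors deposited divides by exon length and mapped reads. The fold columns and read lists of fine splicing were not used.

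Introns are numbered along the chromosome in the files and were renumbered here from the 5′ end. All 13152 introns of genes with 20 or more introns were placed on TAIR10.1 of RefSeq, 98.6% of them on an annotated intron. The exon reference was the sum of both neighbouring exons less the spliced reads, since a spliced read lies in both. Counts were rounded. Introns needed 10 or more exon reads in each library and 10 intron reads over the 6 libraries. Ratios were tested with edgeR 4.0.16 (R 4.3.3, TMM, 1 term per library), with DESeq2 1.42.0 as the alternative, and both were tested on simulated data. Genes used filterByExpr. Exact permutation tests, tables and figures used Python 3.11.15, scipy 1.17.1, pandas 2.3.3 and matplotlib 3.10.9.

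Library depth was between 20796343 and 25501031 gene reads in acinus-2 pnn and between 18890178 and 27622690 in WT. Intron reads per 100 exon reads are not corrected for intron length. Levels given side by side for different introns, bins or classes of genes therefore also carry differences in length.

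The genes named were those with 2 or more rising introns, the 12 called introns that rose most and the 4 that fell most, where the higher genotype averaged 20 reads and the genotypes lay apart (only 1 fall met this), the 5 largest changes of summed retention each way, member genes named in the study, and 2 to 4 genes of each list with the lowest adjusted p. A few others were named after their values were seen, in the sentences on RNA level. The members, lists and tests were chosen with earlier results of these data known. Alternatives covered normalization, filters, the exon reference, the number of introns and each library left out.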

Additional observations from a re-analysis of the deposited data

How the results depend on the processing

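The pooled ratio was higher in acinus-2 pnn under every alternative tried, with folds from 1.20 (without called introns, or from 15 introns on) to 1.51 (30 or more introns). It was 1.22 to 1.35 with 1 library left out. An alternative chosen after seeing the data, without genes with several rising introns, gave 1.24. The difference in slope along the gene kept its direction in all alternatives, between -0.07 and -0.03, and was -0.04 to -0.03 with 1 library left out. The difference from genes with 2 to 9 introns was 0.23 to 0.37 and from genes with 10 to 19 introns 0.05 to 0.17 with 1 library left out.

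The count of 70 rising introns became 4 by DESeq2, 46 with intron reads scaled by their total, 28 with no minimum of intron reads, 238 at an unadjusted p, 111 from 15 introns on, 28 from 30 introns on, and 25 to 47 with 1 library left out. The single falling intron became 0 by DESeq2 (9 at an unadjusted p), 16 at an unadjusted p by edgeR, 2 by the adjusted p alone, 3 from 15 introns on, 0 from 30 introns on (2 at an unadjusted p by edgeR) and 0 to 1 with 1 library left out. The share of genes with a single rising intron was 100% of 4 genes by DESeq2, 63.8% of 138 genes at an unadjusted p, and 79.3% to 92.9% with 1 library left out. Genes with more summed retention became 5 by DESeq2, 19 without called introns, and 29 to 44 with 1 library left out. Genes with less became 0 by DESeq2 (4 at an unadjusted p), and 1 to 3 with 1 library left out. RNA level calls were 4 to 6 higher and 14 to 15 lower with 1 library left out. Of 169 values of the named introns under these alternatives, 148 stayed called, 21 did not, 11 of these by DESeq2, and none reversed. By DESeq2 only KEA1 intron 10 and AT3G11964 intron 17 kept their call. The cause of these shifts was not tested. No paired analysis was possible because the genotypes share no replicate number.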
